A study of Drosophila melanogaster with 21 samples.

Results

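The antimicrobial peptide genes of Drosophila melanogaster described here are AttA, AttB, AttC, AttD, CecA1, CecC, DptB, Dro, Drs and Mtk, a list of 10 set by gene name. All 10 were among the 13955 genes of the brain and ovary count tables. Of the 10, 9 were found by transcript among the 11010 genes of the S2 cell table, and AttC was not analysed in S2 cells. In flies, fat body, blood cells and epithelia make these short secreted peptides after microbes or injury, through 2 NF-kappaB pathways. In the IMD pathway, bacterial peptidoglycan binds receptors such as PGRP-LC and activates the transcription factor Rel; attacins, diptericins, drosocin and cecropins are its usual readouts. In the Toll pathway, the cytokine spz activates the receptor Tl and the factors Dif and dl; the antifungal peptide drosomycin (Drs) is its usual readout in systemic infection, and metchnikowin (Mtk) responds to either pathway.

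The series targeted CG11247 (Saft), a transcription factor, for loss in flies and in a cell line. Brains (40 per library, 2 libraries per group) and ovaries (5 pairs per library, 3 libraries per group) came from females 3 to 4 days old, mated for 2 days on yeast paste. The wild type was the parental isogenised white strain (w;;;). Mutant 1 carried a 1 bp deletion in exon 1 (w;; CG11247[indel1]/TM3,Sb) and mutant 2 a 2 bp deletion in exon 2 (w;; CG11247[indel2]/TM3,Sb), both described as frameshift alleles made by CRISPR-Cas9. The stocks are written over TM3,Sb, a balancer of the third chromosome, and whether the dissected females carried it is not stated. Schneider S2 cells, a line of blood-cell character derived from embryos, were 1 clone (9C) expressing OsTir1, with the endogenous gene tagged with FLAG-AID on all copies. They received 500 µM auxin, which leads to degradation of the tagged protein, for 24 h or 48 h, or solvent only (untreated), with 2 libraries per group. Auxin was not given to untagged cells in the libraries analysed here. No infection or wound is named in the labels of any sample.

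Library totals were 39.0 to 45.6 M counts in brain, 14.1 to 21.5 M in ovary and 6.42 to 9.15 M in S2 cells. Levels are given as CPM, the count per M library counts (M as in these totals) after TMM scaling, each within its own system, and differences as log2 fold changes with their standard error (SE). A gene was called when its edgeR quasi-likelihood adjusted p, over all genes tested in the system, was under 0.05. CG11247 RNA was 87.8 ± 2.68 CPM (SD, n = 2) in wild-type brain, 65.9 ± 0.713 in mutant 1 and 107 ± 4.50 in mutant 2, and 62.8 ± 4.08, 30.1 ± 0.733 and 72.6 ± 2.27 (n = 3) in ovary. It was called lower in mutant 1 and higher in mutant 2 in both tissues. In S2 cells it was 19.8 ± 2.14 CPM untreated, 25.5 ± 3.20 at 24 h and 26.8 ± 2.51 at 48 h (n = 2), not called. The counts cover the whole gene, so they do not check deletions this small. Neuronal markers summed to 12578 to 13820 CPM in brain libraries and germline markers to 4467 to 4832 CPM in ovary libraries, and hemocyte markers summed to 5975 to 9928 CPM in S2 libraries. Before the gene results, 4 tissue libraries need naming, because one or more peptide genes stood apart in them. These were brain mutant 1 library 1 and brain mutant 2 library 2, and, at a far lower level, ovary mutant 1 library 3 and ovary mutant 2 library 1, the last mainly for Drs.

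In the brain, the antimicrobial peptide genes were most abundant in 1 library of each mutant. All 10 genes had their highest value in mutant 1 library 1 or mutant 2 library 2 (5 genes in each), and their second highest in the other of these libraries. For AttD this order has no weight, as it held 4 and 3 counts there and 3 in wild-type library 1. Their summed level was 138 CPM in mutant 1 library 1 and 126 CPM in mutant 2 library 2. It was 27.5 CPM in mutant 1 library 2 and 36.7 CPM in mutant 2 library 1, against 15 and 14.3 CPM in the wild-type libraries. All 4 mutant libraries were therefore above both wild-type libraries in the sum, by 1.87 to 9.41 times the wild-type mean, with a gap inside each mutant far larger than that between the wild-type libraries.

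**Figure D1:**
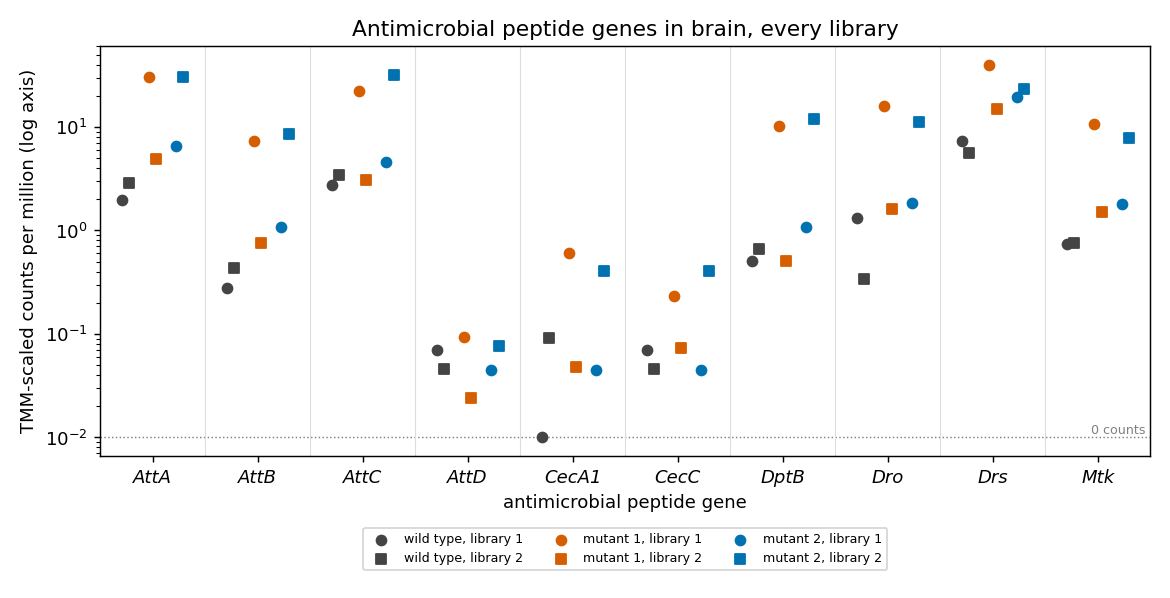
Level of each antimicrobial peptide gene in each of the 6 brain libraries, in TMM-scaled CPM on a log axis; each point is 1 library, and a value of 0 counts is drawn on the dotted line. Mutant 1 library 1 and mutant 2 library 2 hold the highest points of every gene, for example 30.6 and 30.7 CPM for AttA. For AttD, at 4 and 3 counts there and 3 in wild-type library 1, this order has no weight.

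The attacins are glycine-rich peptides active mainly against Gram-negative bacteria. AttA lies on chromosome arm 2R of build BDGP6, 647 bp from Dro and 1007 bp from AttB, with no gene between them. AttA was at 30.6 and 4.85 CPM in the mutant 1 libraries (library 1, then library 2), at 6.60 and 30.7 CPM in the mutant 2 libraries, and at 1.97 and 2.84 CPM in the wild-type libraries. All 4 mutant libraries were above both wild-type libraries, and 2 of them were several times above the other mutant libraries. The log2 fold change of AttA was 2.88 (SE 1.49) in mutant 1 and 2.94 (SE 1.49) in mutant 2, with edgeR adjusted p of 0.771 and 0.633, so it was not called. AttB, whose coding sequence is nearly identical to that of AttA, was at 7.39 and 0.749 CPM in mutant 1, at 1.07 and 8.56 CPM in mutant 2, and at 0.278 and 0.432 CPM in wild type. Its groups did not overlap either, and it was not called in mutant 1 (log2 3.51, SE 1.99, edgeR adjusted p 0.809) or in mutant 2 (3.74, SE 1.98, 0.649). Because the counting could split reads between these 2 copies, their sum is also given, and it was 37.9 and 5.60 CPM in mutant 1, 7.67 and 39.2 in mutant 2, and 2.25 and 3.28 in wild type. The sum had the same order of libraries as AttB alone.

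AttC, an attacin gene elsewhere on 2R, was at 22.4 and 3.07 CPM in mutant 1, at 4.55 and 32.0 CPM in mutant 2, and at 2.76 and 3.46 CPM in wild type. The mutant 1 libraries thus overlapped wild type, with library 2 between the 2 control values. AttC was not called (log2 2.04, SE 1.61, edgeR adjusted p 0.891 in mutant 1; 2.55, SE 1.62, 0.715 in mutant 2). AttD (3R:17625268-17626086, BDGP6), an attacin gene thought to lack a signal peptide, stayed at 0.0242 to 0.0929 CPM in all 6 libraries, or 1 to 4 counts each, and did not pass the low-count filter. Its groups overlapped in both mutants.

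DptB, a diptericin and a standard readout of the IMD pathway, was at 10.3 and 0.507 CPM in mutant 1, at 1.07 and 11.9 CPM in mutant 2, and at 0.510 and 0.660 CPM in wild type. Mutant 1 library 2 was the lowest of all 6 brain libraries and mutant 1 library 1 was 20.3 times above it, the widest gap inside a group among the 8 genes tested. The log2 fold change was 3.21 (SE 2.24) in mutant 1 and 3.45 (SE 2.24) in mutant 2, and DptB was not called (edgeR adjusted p 0.861 and 0.723). Dro, which encodes the proline-rich peptide drosocin, was at 16.1 and 1.62 CPM in mutant 1, at 1.85 and 11.2 CPM in mutant 2, and at 1.32 and 0.341 CPM in wild type. Its mutant libraries were all above both controls, which themselves differed by 3.87 times. Dro was not called (log2 3.41, SE 1.90, edgeR adjusted p 0.802 in mutant 1; 2.96, SE 1.90, 0.720 in mutant 2).

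The cecropins are helical peptides that lyse bacterial membranes. CecA1 (3R:30210874-30211273) and CecC (3R:30216484-30216938) lie 5210 bp apart, with 4 genes of the same cluster between them, and reads of CecA1 could be shared with its close copy CecA2. CecA1 was at 0.604 and 0.0483 CPM in mutant 1, at 0.0446 and 0.406 CPM in mutant 2, and at 0 and 0.0910 CPM in wild type, which is 0 to 26 counts per library. Only the high library of each mutant was above both controls, and CecA1 was not called (edgeR adjusted p 0.814 and 0.784). CecC held 10 and 3 counts in mutant 1, 2 and 16 in mutant 2, and 3 and 2 in wild type, and did not pass the filter.

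Drs (3L:3369556-3369942), which encodes the antifungal drosomycin, had the smallest difference between libraries of the same mutant. It was at 39.7 and 15 CPM in mutant 1, at 19.6 and 23.3 CPM in mutant 2, and at 7.30 and 5.66 CPM in wild type. All 4 mutant libraries were above both controls, and the mutant 2 libraries differed by 1.19 times. The log2 fold change was 2.08 (SE 0.61) in mutant 1, with an edgeR unadjusted p of 0.0363 and adjusted p of 0.472. It was 1.72 (SE 0.61) in mutant 2, with an edgeR unadjusted p of 0.0593 and adjusted p of 0.475. DESeq2 called Drs in mutant 1 (log2 2.08, adjusted p 0.0130) and not in mutant 2 (1.72, adjusted p 0.0664). Mtk, the proline-rich antifungal and antibacterial peptide metchnikowin, was at 10.8 and 1.5 CPM in mutant 1, at 1.78 and 7.87 CPM in mutant 2, and at 0.742 and 0.751 CPM in wild type. All mutant libraries of Mtk were above the controls, and it was not called (log2 3.04, SE 1.52, edgeR adjusted p 0.758 in mutant 1; 2.68, SE 1.53, 0.683 in mutant 2).

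Of the 10 genes, 8 passed the low-count filter in brain, and edgeR called 0 of these 8 in either mutant, where 1.9% (mutant 1) and 2.23% (mutant 2) of all 9880 genes tested were called higher. At an unadjusted p under 0.05 the count was 1 in mutant 1 (Drs) and 0 in mutant 2, and DESeq2 called 1 and 0, beside 2.17% and 2.98% of its genes called higher. The fitted changes were positive for 8 of 8 in both mutants, with a median log2 of 2.96 in mutant 1 and 2.81 in mutant 2, beside medians of 0.00 over all genes. CecA1 passed the filter only through the high mutant libraries, so its positive sign was fixed by the filter, and these figures are a description. Every library of both mutants was above both wild-type libraries for 5 of the 8 (AttA, AttB, Dro, Drs and Mtk), as was the case for 12.6% of all genes tested. Taken singly, mutant 1 was above wild type in both libraries for 5 genes (22.3% of all genes) and mutant 2 for 7 (20.5%). The mutants share the same 2 wild-type libraries, so their changes are not independent of each other. Mutant 2 against mutant 1 gave 0 calls among the 8 genes, with log2 differences from -0.59 (CecA1) to 0.51 (AttC) and edgeR adjusted p of 1.00 throughout, where 0.0405% of all genes were called. In bulk tissue, a change in the number of cells of a type and a change in RNA per cell cannot be told apart.

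Without mutant 1 library 1 and mutant 2 library 2, which leaves 1 library per mutant whose spread is taken from the wild-type pair, the changes became smaller and parted by gene. AttC was then at a log2 of -0.02 (SE 0.22) and DptB at -0.21 (SE 0.39) in mutant 1, against 0.55 (SE 0.21) and 0.87 (SE 0.35) in mutant 2. AttA remained positive at 1.01 (SE 0.25) and 1.45 (SE 0.25), and Mtk at 1.00 (SE 0.26) and 1.25 (SE 0.25). Drs was at 1.21 (SE 0.16) in mutant 1 and 1.60 (SE 0.16) in mutant 2. With only mutant 1 library 1 left out, Drs was at 1.21 (SE 0.17) in mutant 1, and with only mutant 1 library 2 left out at 2.62 (SE 0.16). A fit that leaves a mutant with 1 library does not see the spread between its libraries. Its SE comes from the other groups, so effect sizes are given and no call is read from them.

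**Figure D2:**
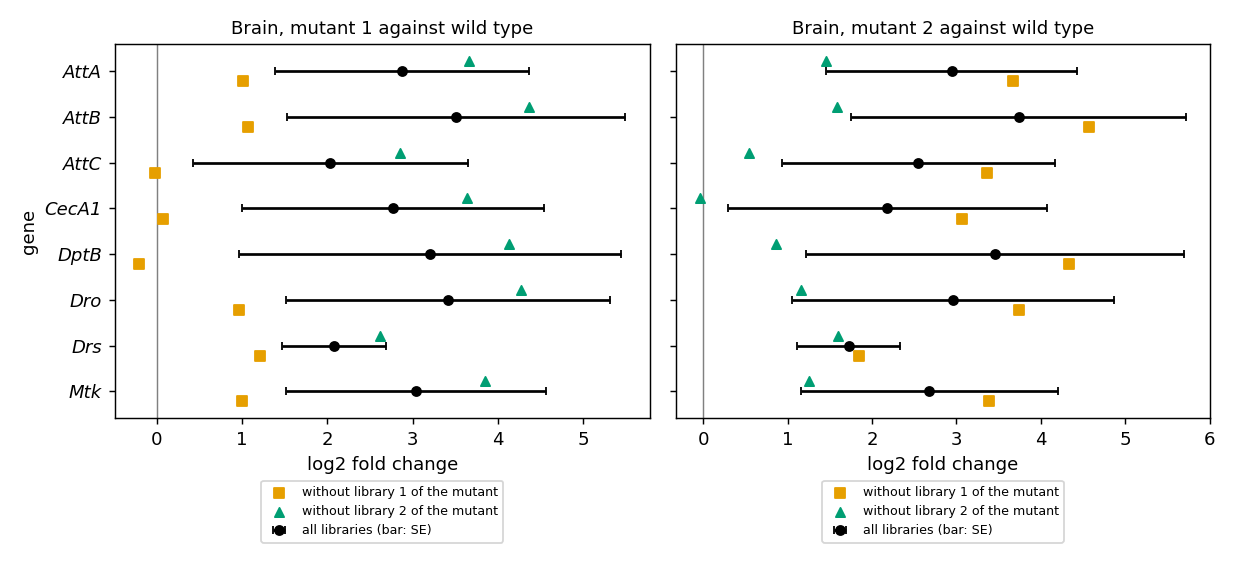
Log2 fold change of the 8 antimicrobial peptide genes tested in brain, for mutant 1 (left) and mutant 2 (right) against wild type; black points are the fit with all libraries with bars of 1 SE, squares leave out library 1 of that mutant and triangles library 2. Leaving out library 1 of mutant 1 moves AttC from 2.04 to -0.02, while Drs moves from 2.08 to 1.21.

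Per kb of transcript, Drs was the most abundant of the 10 genes in all 6 brain libraries. In wild type it was at 16.8 ± 2.99 CPM per kb (SD, n = 2), followed by AttC at 3.45 ± 0.549, AttA at 3.05 ± 0.782, Mtk at 2.78 ± 0.0235, DptB at 1.30 ± 0.236, Dro at 1.10 ± 0.919 and AttB at 0.404 ± 0.124. AttA overlapped both AttC and Mtk, both libraries of AttC were above both of Mtk, and DptB and Dro overlapped. The remaining genes were CecC at 0.149 ± 0.0441, CecA1 at 0.134 ± 0.190 and AttD at 0.0775 ± 0.0229 CPM per kb, which could not be ordered at 0 to 4 counts per library. The make-up of the pool differed between libraries: Drs was 61.5% and 52.8% of the summed level per kb in wild type, and 66.4% and 65.7% in mutant 1 library 2 and mutant 2 library 1. It was 39.2% in mutant 1 library 1 and 27.7% in mutant 2 library 2. The libraries with the most peptide RNA thus had the lowest share of Drs.

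Other immune genes were read in the same brain libraries from lists named in the methods. Bomanin and Daisho genes encode short peptides induced through Toll. Their list here also held IM33, which by name is in neither family. The summed level of the list was 254 and 114 CPM in mutant 1, 199 and 223 CPM in mutant 2, and 71.1 and 47.0 CPM in wild type. All 4 mutant libraries were above both controls in this sum, and mutant 2 library 1, which was not among the highest for the antimicrobial peptides, was close to mutant 2 library 2. IM33 made part of the sum, at 43.2 and 26.9 CPM in mutant 1, 35.8 and 40.7 in mutant 2, and 32.4 and 19.1 in wild type. Of the 15 listed genes tested, 15 had positive changes in both mutants, with 1 called in mutant 1 and 3 in mutant 2 (8 and 10 by DESeq2). Over all genes tested, 49.9% and 49.8% had positive changes in mutants 1 and 2. The shares of all genes called higher were 1.9% and 2.23% by edgeR and 2.17% and 2.98% by DESeq2. The smallest adjusted p was that of BomT3, which was at 18.1 and 12.4 CPM in mutant 1, 18.5 and 17.5 CPM in mutant 2, and 4.03 and 2.98 CPM in wild type. It rose in both mutants, by a log2 of 2.12 (SE 0.22, edgeR adjusted p 0.00522) and 2.36 (SE 0.22, edgeR adjusted p 0.00301), and BomT1 (3.22) and BomT2 (2.24) rose in mutant 2 (edgeR adjusted p 0.0172 and 0.0277). BomT1, at 4 counts in each wild-type library, passed the low-count filter only through the mutant libraries. Its positive sign was therefore favoured by the filter. Among other antimicrobial peptide genes, the diptericin DptA was at 3.28 and 0 CPM in mutant 1, 0.201 and 6.45 in mutant 2, and 0.0464 and 0.205 in wild type, so its high libraries were those of DptB.

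Of 16 IMD pathway genes and 19 Toll pathway genes tested in brain, edgeR called 0 in either mutant. At an unadjusted p under 0.05 there were 0 IMD and 2 Toll genes in mutant 1 and 3 and 6 in mutant 2, and DESeq2 called 2 Toll genes in mutant 2 and 0 genes otherwise. The median log2 changes were 0.06 and 0.05 for IMD genes and 0.08 and 0.10 for Toll genes in mutants 1 and 2. Rel was at 74.4 and 76.7 CPM in mutant 1, 71.1 and 86.1 in mutant 2, and 67.6 and 70.8 in wild type, and was not called (log2 0.13 and 0.18). Pirk, a negative regulator induced by the IMD pathway, was at 3.72 and 5.22 CPM in mutant 1, 3.97 and 7.52 in mutant 2, and 2.30 and 2.23 in wild type. All 4 mutant libraries of pirk were above both controls, as for 12.6% of all genes tested. EdgeR did not call it (log2 0.98, unadjusted p 0.0266, adjusted p 0.394, and 1.34, unadjusted p 0.00710, adjusted p 0.147). Mutant 1 library 1, high for the peptides, was its lowest mutant library. Of 12 IMD negative regulators tested, pirk among them, DESeq2 called 0 in mutant 1 and 1 in mutant 2.

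The genes LysP, TotA and DptA were chosen after their values were seen. LysP, a lysozyme gene, held 372 counts (8.64 CPM) in brain mutant 1 library 1 and 0 in the other 5 libraries. The stress-induced Turandot gene TotA was at 18.6 and 26.2 CPM in mutant 1, 24.1 and 73.6 in mutant 2, and 6.12 and 7.46 in wild type, and was highest in mutant 2 library 2 and lowest, among the mutant libraries, in mutant 1 library 1. Fat body markers (17 of 18 genes found, none at 0 in every library) summed to 14572 to 17498 CPM in the mutants and 19195 to 24417 CPM in wild type, and of 15 tested 3 fell in mutant 1, and 2 fell and 1 rose in mutant 2. Hemocyte markers (19 of 19 found, none at 0 in every library) summed to 3512 to 3868 CPM in the mutants and 4744 to 5337 CPM in wild type, and 8 of 17 tested fell and 1 rose in each mutant, where 0.759% and 0.729% of all genes were called lower. Gut markers (12 of 12 found) summed to 193 to 209 CPM in the mutants and 185 to 192 CPM in wild type. Much of the fat body sum was Yp1 (7225 and 5393 CPM in wild type, 4114 to 5099 in the mutants) and Yp2 (5325 and 3997 against 2749 to 3429). Desat1, on the same list, was the gene that rose in mutant 2 (log2 0.40, edgeR adjusted p 0.0300). Much of the hemocyte sum was Col4a1 (1648 and 1473 CPM in wild type, 1077 to 1158 in the mutants), Ppn (1179 and 1010 against 636 to 775) and vkg (1099 and 1011 against 779 to 858). Atilla, on the hemocyte list, went the other way, at 7.56 and 7.99 CPM in wild type and 11.9 to 13.7 in the mutants. The marker sums for fat body and hemocytes were therefore lower in all 4 mutant libraries, while the peptides were higher. The part of these signals in the peptide values was not tested.

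**Figure D3:**
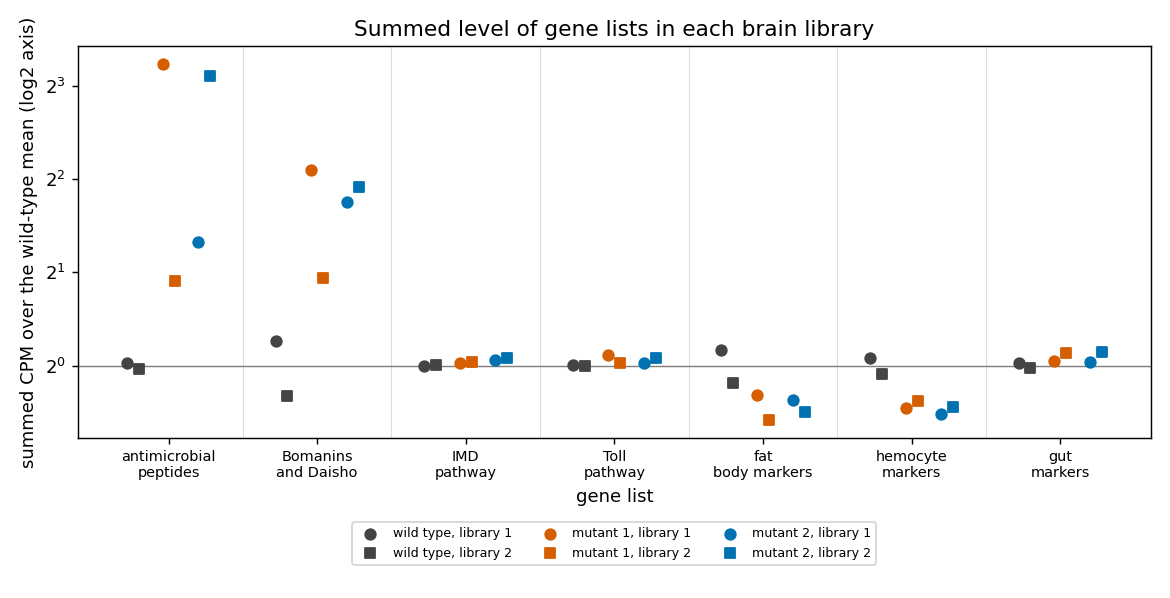
Summed CPM of 7 gene lists in each brain library divided by the mean of the 2 wild-type libraries, on a log2 axis. Each point is 1 library, and the Bomanin and Daisho list includes IM33. The antimicrobial peptides reach 9.41 and 8.61 times the wild-type mean in mutant 1 library 1 and mutant 2 library 2 and 1.87 and 2.50 times in the other mutant libraries, the IMD and Toll pathway lists stay between 0.995 and 1.08, and the fat body and hemocyte lists lie between 0.668 and 0.802 in the mutants.

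Across the 6 brain libraries, log2 levels of pairs of the 8 tested peptide genes had a median Pearson r of 0.934 (0.737 to 0.997), a description in which the points share 2 high libraries. The genes most like the mean profile of the 8 included CG14853 (r = 0.987), bur (0.983), Mer (0.983) and the cecropin gene CecA2 (0.982), over the same 6 libraries. Among these, CecA2 spanned 0 to 0.483 CPM, whereas CG14853 moved only from 298 to 315 CPM and bur from 78.1 to 84.3 CPM, so the likeness of these genes is one of order at small amplitude.

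In the ovary the antimicrobial peptide genes were near the limit of detection, and only AttA and Dro passed the low-count filter. Their summed level was 2.62, 3.66 and 7.84 CPM in the mutant 1 libraries 1 to 3, 9.82, 3.26 and 3.90 CPM in those of mutant 2, and 3.10, 4.06 and 2.66 CPM in wild type. Mutant 1 library 3 and mutant 2 library 1 were the libraries above the wild-type range. In each wild-type library 6 of the 10 genes were at 0 counts, and in the mutants 2 to 5. A count of 0 in a wild-type ovary library allows a level of up to 0.163 to 0.222 CPM (3 counts of the library), and such limits cover counting error only.

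AttA was at 1.04, 1.26 and 2.89 CPM in mutant 1, at 1.26, 1.14 and 1.72 CPM in mutant 2, and at 1.45, 2.22 and 1.30 CPM in wild type. The 3 groups overlapped, and AttA was not called (log2 0.09, SE 0.39, edgeR adjusted p 0.883 in mutant 1; -0.27, SE 0.40, 0.666 in mutant 2). Its neighbour Dro was at 1.16, 1.86 and 2.75 CPM in mutant 1, at 1.06, 0.988 and 1.24 CPM in mutant 2, and at 1.45, 1.62 and 1.25 CPM in wild type. All mutant 2 libraries were just under all wild-type libraries while mutant 1 overlapped them, and Dro was not called (log2 0.43, SE 0.32, edgeR adjusted p 0.338 in mutant 1; -0.39, SE 0.33, 0.428 in mutant 2). EdgeR therefore called 0 of 2 genes in either mutant, with 0 at an unadjusted p under 0.05 and 0 by DESeq2, where 12.2% (mutant 1) and 8.77% (mutant 2) of 8312 genes tested were called higher and 11.2% and 7.35% lower. Neither gene had all 6 mutant libraries above all wild-type libraries, as 15.6% of genes did. Mutant 2 against mutant 1 gave a log2 of -0.82 for Dro (SE 0.32, unadjusted p 0.0246, edgeR adjusted p 1.00) and no call among the 2 genes, where 0.012% of all genes were called.

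Together AttA and Dro made 90.7%, 93.3% and 94.5% of the summed peptide level per kb in wild-type ovary, against 13.8% and 14.6% in wild-type brain. In wild-type ovary AttA was at 2.09 ± 0.621 CPM per kb (SD, n = 3) and Dro at 1.91 ± 0.250, which did not differ beyond their spread, and the other 8 genes were at 0 to 0.143 CPM per kb. The share of AttA and Dro fell to its lowest value, 13.6%, in mutant 2 library 1, in which Drs made 81.8%.

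Drs was the gene that set mutant 2 library 1 apart. It held 139, 5 and 6 counts in mutant 2 (7.0, 0.247 and 0.355 CPM), 2, 4 and 15 counts in mutant 1 (0.122, 0.219 and 0.688 CPM), and 0, 1 and 0 counts in wild type. All 6 mutant libraries held more counts than any wild-type library, but 5 of the 6 held at most 15, and those with 2 and 4 counts were under the highest level that 0 counts allow in wild type. As summed counts, Drs was 17.3 times wild type in mutant 1 (95% exact interval 2.78 to 715) and 122 times in mutant 2 (21.6 to 4863), ratios that rest on 1 wild-type count and, in mutant 2, mostly on library 1. Without library 1 the mutant 2 ratio was 13.8 (2.00 to 593), and without library 3 the mutant 1 ratio was 8.04 (0.976 to 370). Drs did not pass the filter in ovary. In the fit without a filter it was not called (edgeR adjusted p 0.419 and 0.122).

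CecA1 held 1, 2 and 4 counts in mutant 1, 3, 10 and 2 counts in mutant 2, and 0 in each wild-type library. Every mutant library thus held at least 1 count, at 0.0610 to 0.494 CPM, but only mutant 2 library 2 was above the level that 0 counts allow in all 3 wild-type libraries. With mutant counts taken as exact, CecA1 in mutant 1 was at least 1.92-fold above a floor of 3 counts over the wild-type group. Without library 3, which holds 4 of its counts, this value was 1.34. For mutant 2 it was at least 4.08-fold, or at least 2.11-fold without library 2, which holds 10 of its counts. Counting error in the mutant counts is not covered by these values. CecA1 did not pass the filter. In the fit without a filter it was not called in mutant 1 (edgeR adjusted p 0.0787) and was called in mutant 2 (edgeR adjusted p 0.0267). AttB was at 0.244, 0.0547 and 1.15 CPM in mutant 1, 0, 0 and 0.414 CPM in mutant 2, and 0.0689, 0 and 0 CPM in wild type, which is 25 counts in mutant 1 library 3 and at most 7 elsewhere. Its groups overlapped. Mtk (0 to 4 counts), AttC (0 to 5), DptB (0 to 2), AttD (0 to 1) and CecC (0 to 1) were too low in all 9 ovary libraries for a comparison.

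**Figure D4:**
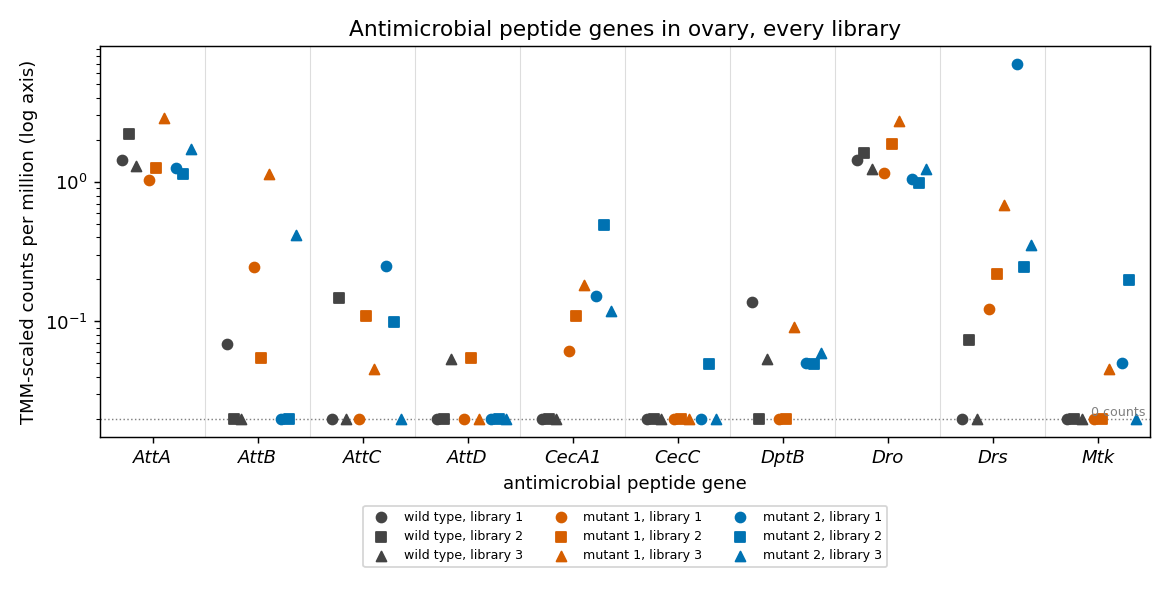
Level of each antimicrobial peptide gene in each of the 9 ovary libraries, in TMM-scaled CPM on a log axis; each point is 1 library, and 0 counts are drawn on the dotted line. AttA and Dro lie between 0.988 and 2.89 CPM in all libraries, and Drs reaches 7.0 CPM in mutant 2 library 1.

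PGRP-LC, the membrane receptor of the IMD pathway, was at 3.90, 4.05 and 4.77 CPM in mutant 1, 3.98, 3.61 and 4.97 CPM in mutant 2, and 1.38, 1.48 and 1.57 CPM in wild type. It rose in both mutants with no overlap, by a log2 of 1.52 (SE 0.21, edgeR adjusted p 4.2e-04) and 1.49 (SE 0.21, edgeR adjusted p 5.2e-04), and it was the 1 called gene of 16 IMD pathway genes tested, a share below the 12.2% and 8.77% of all ovary genes called higher. Of 16 Toll pathway genes tested, against the same shares of all genes, 5 rose in mutant 1 and 4 in mutant 2, among them Dif (log2 0.54 and 0.80), the serpin gene nec (1.48 and 1.29), spz (0.43 and 0.39) and the inhibitor cact (0.23 and 0.16), with edgeR adjusted p of 0.00287 to 0.0486. BomT3 rose too, by 3.21 (SE 0.57, edgeR adjusted p 0.00298) and 2.85 (SE 0.57, edgeR adjusted p 0.00762), from 0.109 to 0.517 CPM in wild type to 1.28 to 3.99 CPM in the mutants. In ovary, BomT3 passed the low-count filter only through the mutant libraries, so its direction was favoured by the filter. Rel, at 99.9 to 113 CPM in all 9 libraries, was not called. Follicle cell markers (11 of 11 found) summed to 11009 to 17098 CPM in the mutants and 23216 to 24537 CPM in wild type with no overlap, and 5 of 11 fell and 1 rose in each mutant. Their part in the ovary values was not tested.

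The summed level of the Bomanin and Daisho list, IM33 included, was highest in the same ovary libraries, at 27.4 CPM in mutant 1 library 3 and 21.8 CPM in mutant 2 library 1, against 3.67 to 15.9 CPM in the other mutant libraries and 1.25 to 8.12 CPM in wild type. TotA was at 5.41 CPM in mutant 1 library 3 and at 0 to 1.01 CPM in the other 8 libraries, with 1.01 CPM in mutant 2 library 1. Hemocyte markers (19 of 19 found, He at 0 in every library) summed to 763 to 1091 CPM in the mutants and 1087 to 1121 CPM in wild type. Of 14 tested, 3 rose and 1 fell in mutant 1 and 4 rose in mutant 2, among them Hml, which marks plasmatocytes (log2 1.41 in mutant 2, edgeR adjusted p 0.00766). The yolk protein genes Yp1 and Yp2, on the fat body list and also expressed in follicle cells, fell in both mutants, with log2 changes of -0.57 to -0.69. The part of these signals in the peptide values was not tested. Over the 9 libraries AttA and Dro correlated at r = 0.778, and the genes most like their mean profile were Rab32 (0.942), Xpd (0.887), Idua (0.839), Smr (0.823) and CG4267 (0.820), a description over points that share mutant 1 library 3 as the highest.

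The difference between the mutant effects in brain and ovary was tested in 1 fit over all 15 tissue libraries. EdgeR called 0 of the 8 peptide genes tested, where 6.29% of 10029 genes were called, beside 2 at an unadjusted p under 0.05. DESeq2 called 1 of them and 9.99% of its genes. The 2 genes that also passed the filter in ovary were AttA, with a difference of log2 2.94 (SE 1.27, edgeR adjusted p 0.203), and Dro, with 3.13 (SE 1.37, edgeR adjusted p 0.207). DESeq2 called AttA (3.03, adjusted p 0.0288) and not Dro (3.19, adjusted p 0.0561). Without the 4 libraries named above the difference was 1.57 for AttA and 1.19 for Dro. Those libraries were picked by the levels of these same genes, and leaving them out leaves 1 library in each brain mutant. Effect sizes are therefore given alone, and no call is read from them. The other 6 genes had at most 3 counts in the wild-type ovary libraries together, and their fitted differences are not given.

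Drs, AttC and Mtk were higher in wild-type brain than in wild-type ovary, in libraries of different tissues scaled together. Drs summed to 564 counts in wild-type brain and 1 in wild-type ovary, a ratio of 469 per scaled library size (95% exact interval 83.8 to 18543). AttC summed to 271 and 2 counts (ratio 113, interval 30.9 to 934). Mtk summed to 65 and 0 counts (at least 18.0-fold higher against 3 counts over the group, with the 65 counts taken as exact). These were the 3 genes called of the 8 tested (edgeR adjusted p 0.00197 for Drs, 0.00814 for AttC, 0.0149 for Mtk), beside 46.8% of 10029 genes called higher in brain. For 6 of 8 genes both brain libraries were above all ovary libraries, as for 48.6% of all genes. AttB, AttC, CecA1, DptB, Drs and Mtk failed the filter in ovary alone and entered through brain, so these counts describe the genes and support no direction. DESeq2 called 4 (AttB, AttC, DptB and Mtk, with no adjusted p for Drs), beside 43.6% of its genes called higher. Dro was an exception, at a log2 of -0.15 (SE 1.14, edgeR adjusted p 0.905), a sign that flips to 0.03 with RLE scaling. Tissue and library set cannot be told apart here, and scaling across tissues moved the median of all genes to 0.10.

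In S2 cells, whose 3' reads count about 1 fragment per transcript, Drs and Dro were the most abundant of the 9 genes, and Drs was higher in auxin-treated than in untreated libraries. Drs was at 51.1 and 32.7 CPM in the untreated libraries 1 and 2, at 76.9 and 62.0 CPM after 24 h and at 70.4 and 62.8 CPM after 48 h. All 4 auxin libraries were above both untreated libraries, by 1.51 and 1.90 times at 24 h and 1.38 and 1.92 times at 48 h against the untreated library of the same number. The log2 fold change was 0.73 (SE 0.25, unadjusted p 0.0219) at 24 h and 0.67 (SE 0.25, unadjusted p 0.0311) at 48 h, with edgeR adjusted p of 1.00 for both. Drs was thus not called in this fit, which leaves out the pairing of libraries by number. With the replicate number as a block, Drs rose by 0.74 at 24 h (edgeR adjusted p 3.4e-05) and by 0.68 at 48 h (edgeR adjusted p 1.5e-04), where 1.05% and 1.54% of all genes were called higher in that fit. Libraries of the same number deviated together in S2 cells, with correlations of 0.632 to 0.758.

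Dro was at 21.3 and 16.4 CPM in untreated cells, at 32.8 and 23.6 CPM at 24 h and at 24.5 and 17.8 CPM at 48 h. Both 24 h libraries were above both untreated libraries while the 48 h libraries overlapped them, and Dro was not called at either time (log2 0.58, SE 0.27, and 0.17, SE 0.27, edgeR adjusted p 1.00). Dro was above the untreated library of the same number in all 4 pairs, by 1.54 and 1.44 times at 24 h and 1.15 and 1.09 times at 48 h. Mtk differed most between library numbers, at 5.29, 5.87 and 11.5 CPM in the libraries numbered 1 (untreated, 24 h, 48 h) and 0.913, 1.94 and 0.968 CPM in those numbered 2. Its groups overlapped, while the ratios within a number were 1.11 and 2.13 at 24 h and 2.18 and 1.06 at 48 h, and it was not called (log2 0.33, SE 1.22, and 1.00, SE 1.21, edgeR adjusted p 1.00). Of genes chosen after their values were seen, the immune-induced edin was likewise at 63.4, 49.7 and 98.4 CPM in the libraries numbered 1 and 16.6, 19.7 and 16.7 CPM in those numbered 2, and TotM went the other way, at 1.03 to 2.99 CPM in number 1 and 22.5 to 34.4 CPM in number 2.

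AttB was at 2.19 and 2.74 CPM in untreated cells, 2.03 and 1.64 CPM at 24 h and 2.33 and 1.66 CPM at 48 h, and was not called (log2 -0.41 and -0.29, edgeR adjusted p 1.00). AttA, whose 3' reads could be shared with AttB, held 1 count in 1 library and 0 in the other 5. CecA1 had 4 and 4 counts in untreated cells, 6 and 7 at 24 h and 11 and 7 at 48 h, so both treated groups lay above the untreated, but it did not pass the filter. CecC held 4 to 11 counts per library, DptB 0 to 4 and AttD 0 to 1, with overlapping groups. Without the replicate block, edgeR thus called 0 of the 4 genes tested at either time, where 0.0979% (24 h) and 0.112% (48 h) of 7152 genes were called higher. At an unadjusted p under 0.05 there was 1 (Drs) at each time, and DESeq2 called 0. With the block, edgeR called 1 of the 4 (Drs) at each time, beside 1.05% and 1.54% of all genes called higher. Drs and Dro at 24 h, and Drs at 48 h, had no overlap with untreated cells, as did 14% and 11.9% of all genes in that direction. The comparison of 48 h with 24 h gave 0 calls among the 4 genes, with 0 at an unadjusted p under 0.05 and 0 by DESeq2, where 0% of all genes were called.

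**Figure D5:**
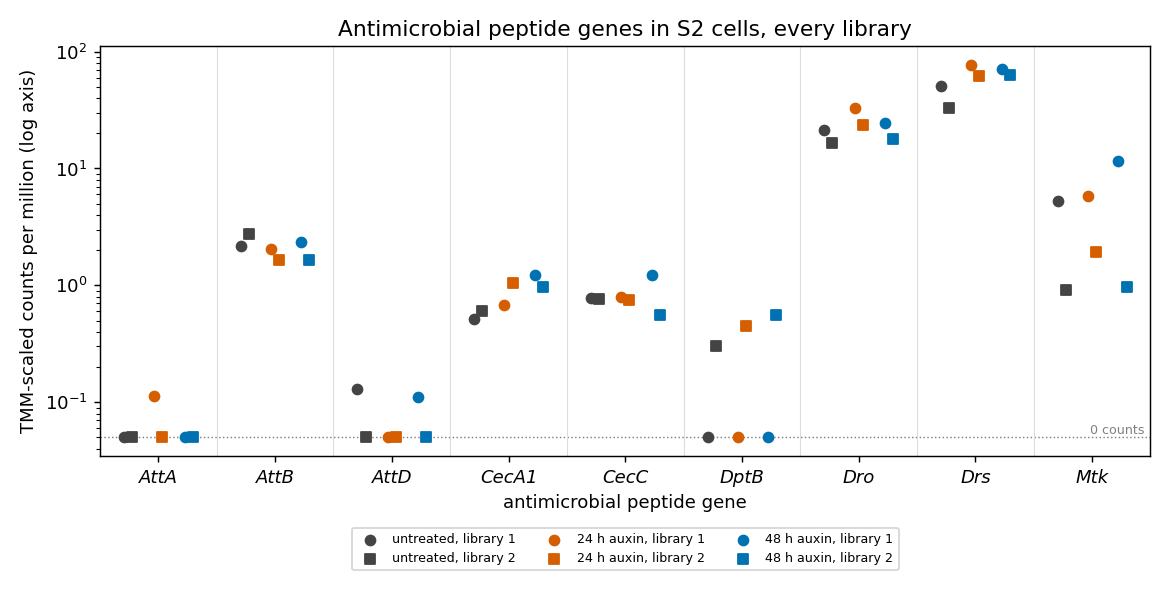
Level of the 9 antimicrobial peptide genes in each of the 6 S2 libraries, in TMM-scaled CPM on a log axis; each point is 1 library, and 0 counts are drawn on the dotted line. The 4 auxin libraries of Drs lie between 62.0 and 76.9 CPM, above the untreated libraries at 51.1 and 32.7 CPM.

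Like Drs, the NF-kappaB genes in S2 cells were not called in the fit without a block. Dif was at 44.6 and 46.2 CPM in untreated cells, 38.7 and 32.9 CPM at 24 h and 29.1 and 31.3 CPM at 48 h, with all treated libraries under both untreated ones (log2 -0.34 and -0.59, edgeR adjusted p 1.00). Rel was at 68.5 and 39.2 CPM in untreated cells, 70.7 and 46.4 CPM at 24 h and 76.5 and 47.9 CPM at 48 h, with overlapping groups. PGRP-LC stayed at 82.0 to 97.0 CPM in all 6 libraries. Of 16 IMD pathway genes and 13 Toll pathway genes tested, edgeR called 0 at either time, beside 2 Toll genes at an unadjusted p under 0.05 at 48 h and 0 by DESeq2. With the replicate block, 1 Toll gene was lower at 24 h, and 1 was higher and 2 lower at 48 h.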

How the data were processed

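Brain and ovary values were deposited as estimated counts per gene, made by the authors with Salmon 1.2.1 after Trim Galore 0.6.2 on build dm3, per the submitters' processing notes. S2 values were deposited as whole-number counts of 3' reads per transcript; for these the aligner was not given in the sources used, nor was the use of strand in any counting. Estimated counts were rounded to whole numbers, and each S2 gene is its isoform with the highest total. Of 26009 S2 transcripts, 25653 matched a gene, and the 356 others held 0.361% to 0.418% of counts. Names, chromosome arms and distances came from the BDGP6 annotation.

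Each system was fitted with edgeR 4.0.16 (R 4.3.3) after TMM scaling and filterByExpr, with robust quasi-likelihood F tests, no replicate block, and Benjamini-Hochberg adjustment over all genes tested. The scripts were tested on simulated data. Alternatives were RLE scaling, no filter, DESeq2 1.42.0, the replicate block, summed S2 isoforms, each library left out, and the high libraries left out together, the last chosen after seeing the data. In S2 cells the same-numbered libraries deviated together in all 6 pairs, so the numbers were taken to pair them. Counts limit precision, and intervals and floors (3 counts, 95%) cover counting error only. The series' design text calls the replicates biological; where nothing more is said of their origin, p-values measure only the spread between these libraries.

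The members and lists were chosen with earlier results of these data known. Named were all members, up to 4 called genes per list and comparison by smallest adjusted p, the genes Rel, Dif, dl, PGRP-LC, pirk and CG11247, and the 5 genes most like the members by Pearson correlation of log2(CPM + 0.1). One of the genes most like the members in brain is not reported here. Promoter sequences were not analysed here.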

Additional observations from a re-analysis of the deposited data

Results flagged for a closer look

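Of 16 IMD and 19 Toll pathway genes tested beside the antimicrobial peptides, 4 differed between the tissues in their mutant effect, by a test of the difference itself (the mean of both mutants minus wild type in brain, minus the same in ovary, edgeR over all 15 tissue libraries), where 6.29% of 10029 genes were called. PGRP-LC had a difference of log2 -1.24 (edgeR adjusted p 7.1e-04) and Dif of -0.61 (edgeR adjusted p 0.0401), so their mutant effect was lower in brain. PGRP-SD, a secreted recognition protein, had a difference of 1.71 (edgeR adjusted p 0.0174) and GNBP3, a fungal glucan receptor, of 0.84 (edgeR adjusted p 0.0349), so their mutant effect was higher in brain. Each difference holds the changes of both tissues, so it does not by itself give a rise or a fall in brain. In brain alone, edgeR called none of these 4 genes in either mutant. PGRP-SD there was at 2.83 to 6.11 CPM in the mutants, above wild type at 2.11 and 1.84 CPM, an order seen for 12.6% of all brain genes tested. GNBP3 there was at 9.83 to 13.2 CPM in the mutants, overlapping wild type at 10.5 and 8.01 CPM. The part of any other signal in these differences was not tested.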

How the results depend on the processing

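The count of peptide genes called changed under some settings. In brain mutant 1 it was 0 with all libraries and 1 (Drs) with DESeq2. Fits without a brain library leave 1 in its group, so their counts of peptide genes called are not given. In ovary mutant 2 the count was 1 (CecA1) without a filter, and for the difference between tissues it was 1 (AttA) with DESeq2. With the replicate block it was 1 (Drs) in S2 cells at 24 h and at 48 h, and 1 (Drs) in place of 3 for wild-type brain against ovary, where DESeq2 gave 4. Same-numbered libraries did not pair in brain (r of -0.029 to 0.351) or ovary (-0.291 to 0.222), and the block changed no other count of peptide genes called.

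Over 36 gene results and 361 alternative values, 334 kept direction and side of the threshold, 18 reversed, 7 passed the threshold and 2 no longer did. With each library left out, brain AttC in mutant 1 ran from -0.0199 to 2.85, DptB from -0.21 to 4.13, and CecA1 in mutant 2 from -0.0386 to 6.23. Without the 2 high brain libraries AttC was -0.0199 and DptB -0.21 in mutant 1. Ovary AttA in mutant 1 was -0.0204 with the replicate block, -0.52 without the 2 high ovary libraries, and -0.51 to 0.36 with each library left out. In S2 cells Mtk ran from -0.69 to 2.09 at 24 h and -1.68 to 2.77 at 48 h, and Dro from -0.0818 to 0.38 at 48 h. Wild-type brain minus ovary for Dro was 0.026 with RLE scaling, 0.016 with DESeq2, 0.41 with the block and -1.40 to 0.52 with each library left out. The cause was not tested. Genes called in all ranged over alternatives from 96 to 322 in brain mutant 1 (263 as reported), 133 to 539 in mutant 2 (292), 996 to 2225 and 604 to 1540 in ovary (1953 and 1340), and 1 to 138 and 4 to 191 in S2 cells (7 and 8). DESeq2 gave no adjusted p for Drs in the comparisons between tissues. Depth limits the ovary, where 8 of 10 genes failed the filter.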
